A study of Mus musculus with 18 samples.

Results

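Nuclear genes of oxidative phosphorylation were followed in round spermatids (RS), haploid germ cells between meiosis and elongation, of WT, KO and KI mice. The members are all genes of the deposited count table whose symbol starts with Nduf, Uqcr or Atp5, is Sdha, Sdhb, Sdhc or Sdhd, starts with Cox4, Cox5, Cox6, Cox7 or Cox8, or is Cyc1, Cycs or Cyct. After 11 symbols marked -ps as pseudogenes were left out, 101 of the 54232 genes in the table were members. They comprise 36 subunits of complex I with 8 of its assembly factors, 4 subunits of complex II, 9 of complex III, Cycs, 17 of complex IV, 18 of complex V, 4 genes annotated as processed pseudogenes without the -ps mark, and 4 isoforms named for the testis, which are Cyct, Cox6b2, Cox7b2 and Cox8c and are described apart. RS were isolated on a BSA gradient from testes of mice aged 75 to 85 days. KO mice lack GRTH, the RNA helicase encoded by Ddx25. KI mice, as the study describes them, carry a human GRTH gene with a missense mutation and do not make phosphorylated GRTH. Both mutants are sterile. Total RNA was made into 6 libraries per genotype without polyA selection, 18 in all, and a library held 18766971 to 26776555 counts assigned to genes. The labels name no further allele and no agent.

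Oxidative phosphorylation passes electrons from NADH and succinate through complexes I, II, III and IV of the inner mitochondrial membrane, with cytochrome c as the soluble carrier between complexes III and IV, and the proton gradient so formed drives ATP synthesis by complex V. Most subunits are encoded in the nucleus, while a small set is encoded by the mitochondrial genome. Male germ cells replace several somatic subunits by isoforms of their own during meiosis, among them testis cytochrome c (Cyct) and the complex IV subunits Cox6b2, Cox7b2 and Cox8c.

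Some properties of the libraries bear on all values. Ddx25 lay between 538.2 and 607.3 CPM in WT (normalized counts of a gene relative to library size, with edgeR's TMM factors) and between 47.7 and 90.9 CPM in KO. It lay between 0.0456 and 0.519 CPM in 5 KI libraries and at 56.9 CPM in the library labelled KI 4, which goes against its label and was also closer to KO 2 than to any KI library. Within a genotype, 6 pairs of libraries (WT 1 and 2, WT 3 and 4, WT 5 and 6, KO 4 and 5, KI 1 and 2, KI 3 and 5) were closer than all others, though further apart than counting noise, and whether all libraries come from separate animals is not stated, so the p-values measure the spread between libraries. All 7 markers of RS were detected in all libraries, with a summed level of 749 to 1169 CPM in WT, 566 to 1128 CPM in KO and 556 to 796 CPM in KI. Markers of spermatocytes, the meiotic cells that precede RS, summed to 882 to 1130 CPM in WT, 1102 to 1287 CPM in KO and 1090 to 1222 CPM in KI.

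The promoters of 3 of the 4 testis isoforms and their somatic counterparts are shown because the levels of each pair are set against each other (Cox8c had no window), and those of Ndufaf1 and Atp5g1 because these genes were lower in both mutants. Windows run from 250 bases before to 50 bases after the annotated start (RefSeq, GRCm38.p6), 5′ to 3′ on the strand of the gene. They are chr2:76360404-76360703 (minus strand) for Cyct, chr6:50566520-50566819 (minus strand) for Cycs, chr7:4753045-4753344 (minus strand) for Cox6b2, chr7:30626065-30626364 (minus strand) for Cox6b1, chr5:71548156-71548455 (minus strand) for Cox7b2, chrX:106015450-106015749 (plus strand) for Cox7b, chr2:119662785-119663084 (minus strand) for Ndufaf1 and chr11:96075582-96075881 (minus strand) for Atp5g1. Capitals mark matches on either strand of the NRF1 core GCATGCGC, the cAMP response element TGACGTCA, the CCAAT box CCAAT and the ETS core CCGGAAG.
Cyct: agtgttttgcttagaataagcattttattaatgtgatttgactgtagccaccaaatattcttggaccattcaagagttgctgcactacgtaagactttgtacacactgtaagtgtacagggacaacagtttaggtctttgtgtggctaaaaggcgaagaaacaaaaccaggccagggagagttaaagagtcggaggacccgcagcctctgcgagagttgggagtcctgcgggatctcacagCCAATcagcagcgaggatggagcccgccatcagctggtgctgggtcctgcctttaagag
Cycs: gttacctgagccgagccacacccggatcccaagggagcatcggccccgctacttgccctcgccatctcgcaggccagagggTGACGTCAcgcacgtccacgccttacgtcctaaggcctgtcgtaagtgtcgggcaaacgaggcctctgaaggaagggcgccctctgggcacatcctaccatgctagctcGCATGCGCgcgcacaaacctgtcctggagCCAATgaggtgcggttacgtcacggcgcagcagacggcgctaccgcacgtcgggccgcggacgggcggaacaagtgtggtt
Cox6b2: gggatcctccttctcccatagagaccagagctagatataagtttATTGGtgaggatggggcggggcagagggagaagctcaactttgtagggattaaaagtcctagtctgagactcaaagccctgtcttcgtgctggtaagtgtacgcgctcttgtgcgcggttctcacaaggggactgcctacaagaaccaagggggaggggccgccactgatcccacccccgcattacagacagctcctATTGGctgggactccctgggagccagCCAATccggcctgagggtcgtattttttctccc
Cox6b1: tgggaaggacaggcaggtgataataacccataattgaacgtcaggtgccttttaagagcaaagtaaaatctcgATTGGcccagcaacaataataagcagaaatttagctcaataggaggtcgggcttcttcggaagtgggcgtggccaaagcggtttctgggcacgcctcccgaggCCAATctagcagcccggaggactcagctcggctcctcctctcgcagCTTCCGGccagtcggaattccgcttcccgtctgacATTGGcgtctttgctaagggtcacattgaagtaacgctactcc
Cox7b2: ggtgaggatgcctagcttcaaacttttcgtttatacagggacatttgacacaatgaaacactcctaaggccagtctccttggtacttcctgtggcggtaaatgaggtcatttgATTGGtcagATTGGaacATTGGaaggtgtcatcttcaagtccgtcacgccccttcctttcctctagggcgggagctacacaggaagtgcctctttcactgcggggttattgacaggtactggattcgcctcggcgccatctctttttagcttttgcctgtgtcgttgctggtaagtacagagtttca
Cox7b: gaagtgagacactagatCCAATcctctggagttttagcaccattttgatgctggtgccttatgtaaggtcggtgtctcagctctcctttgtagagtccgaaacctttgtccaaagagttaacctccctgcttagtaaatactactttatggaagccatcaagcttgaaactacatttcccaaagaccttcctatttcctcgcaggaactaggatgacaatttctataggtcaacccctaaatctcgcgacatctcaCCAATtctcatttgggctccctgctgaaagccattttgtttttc
Ndufaf1: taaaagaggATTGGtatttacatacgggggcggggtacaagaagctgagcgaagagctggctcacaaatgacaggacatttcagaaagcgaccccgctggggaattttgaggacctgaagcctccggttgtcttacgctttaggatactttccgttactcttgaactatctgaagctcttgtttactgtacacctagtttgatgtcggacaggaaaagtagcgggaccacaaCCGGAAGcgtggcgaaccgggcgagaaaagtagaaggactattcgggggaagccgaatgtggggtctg
Atp5g1: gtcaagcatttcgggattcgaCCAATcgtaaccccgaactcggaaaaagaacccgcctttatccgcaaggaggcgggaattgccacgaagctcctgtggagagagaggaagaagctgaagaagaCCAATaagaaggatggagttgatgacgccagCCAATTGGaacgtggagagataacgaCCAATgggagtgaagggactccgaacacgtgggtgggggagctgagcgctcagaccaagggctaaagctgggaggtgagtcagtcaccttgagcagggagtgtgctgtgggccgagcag

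Of 100 member symbols 76 had such a window, with 81 windows in all, against 32851 windows of all genes. NRF1 and the ETS factor GABP are known regulators of respiratory genes. The NRF1 core was found in 13 of the 81 member windows (16%) and in 2.71% of all windows, and the ETS core in 18 member windows (22.2%) and in 8.86% of all. The CRE was found in 5 member windows (6.17%) and in 1.79% of all, and the CCAAT box in 36 (44.4%) and in 37.4% of all. The NRF1 core, ETS core and CRE each contain the letters CG, and the CCAAT box does not. Of all windows 58.6% held 10 or fewer CG, against 8.64% of member windows. The shares were not compared at like CG content, so they do not show that the motifs are particular to these genes. Matches of different motifs did not overlap in any member window. The Cycs window held an NRF1 core at position -60 to -53 and a CRE at -169 to -162 relative to the start, and the Cyct window held neither, only a CCAAT box at -9 to -5. The 3 testis isoform windows held 8 (Cyct), 10 (Cox6b2) and 10 (Cox7b2) CpG dinucleotides, against a median of 19 over member windows and 7 over all windows. Cox7b, with 5, was also low. Motif matches are descriptions of these letters and not of binding.

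In WT RS the testis isoforms stood far above their somatic counterparts. Levels of different genes are compared per kb of exon, and Cox8c (315 CPM per kb) and Cox7b2 (188 CPM per kb) were the highest of all 95 members tested. Cyct had 83.5 CPM per kb and Cycs 2.33 CPM per kb, a difference of 35.8-fold. Cox6b2 was 12.7-fold above Cox6b1 (60.6 against 4.79 CPM per kb), Cox8c was 52.1-fold above Cox8a (6.06 CPM per kb) and Cox7b2 was 323-fold above Cox7b (0.580 CPM per kb). Cox7b is on the X chromosome, as are 2 subunits of complex I among the members. Ndufa1 (3.68 CPM per kb) and Ndufb11 (1.48 CPM per kb) were low too, among complex I subunits that reached 96.6 CPM per kb for Ndufv2.

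**Figure D1:**
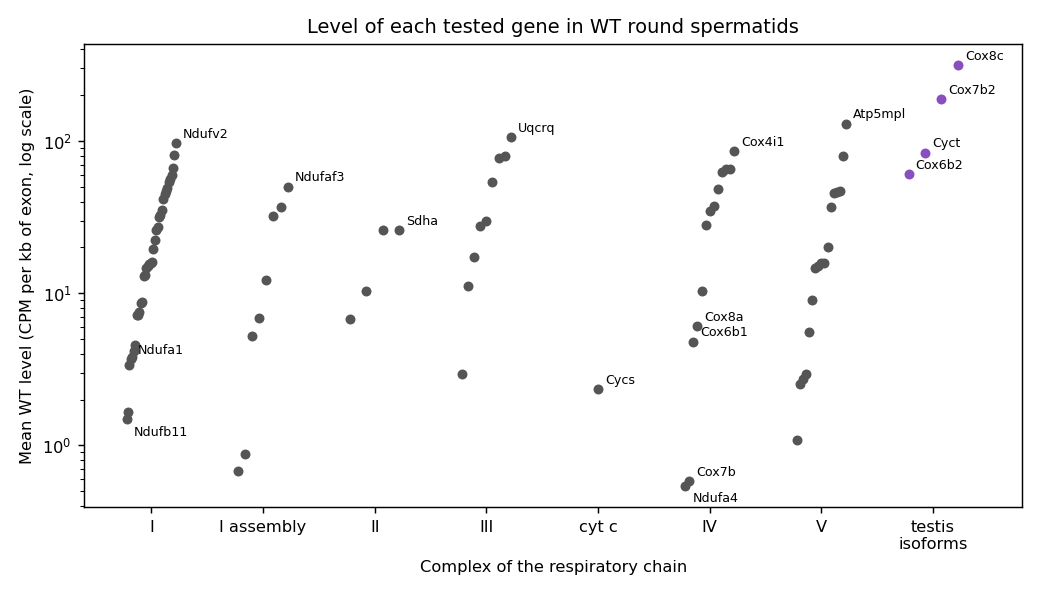
Mean level in the 6 WT libraries of each tested gene, in CPM per kb of exon on a log scale, by complex; each point is 1 gene and testis isoforms are in purple. Cox8c and Cox7b2 are the highest points, and Cox7b and Ndufa4 lie near the bottom at 0.580 and 0.538 CPM per kb.

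The levels of subunits within complexes I, III, IV and V spread over more than an order of magnitude in WT, and those of complex II lay between 6.74 and 26.0 CPM per kb. In complex I, Ndufv2, a subunit that carries an iron-sulfur cluster, was the highest, and among its assembly factors Ndufaf3 was (50.1 CPM per kb). The flavoprotein Sdha led complex II at 26.0 CPM per kb, next to Sdhb at 25.9 CPM per kb. The small subunit Uqcrq led complex III at 106 CPM per kb, Cox4i1 the somatic genes of complex IV at 85.3 CPM per kb, and Atp5mpl, a small membrane subunit of ATP synthase, led complex V at 130 CPM per kb. Ndufa4, now counted with complex IV, was the lowest of all at 0.538 CPM per kb. Cox4i2, Cox6a2, Cox7a1 and Cox8b, isoforms known from lung, heart or skeletal muscle, had at most 8 counts in any library and were not tested, nor were the annotated pseudogene Ndufs6b and a second identifier named Atp5o with 0 counts. Reads of near-identical copies can be lost or split: 26 members shared at least 10% and 4 at least 50% of their 50-base stretches with transcripts of other genes, among the genes named here Ndufaf2 (64.1%), both identifiers named Atp5o (41.6% and 89.8%), Atp5g2 (38.3%), Ndufa13 (28.5%), Cycs (26.1%), Ndufs6b (25.4%), Ndufs3 (17.9%), Ndufb11 (17.5%), Atp5f1 (14.3%), Cox7a2l (13.8%) and Atp5g1 (11.1%), and their levels are uncertain to that degree.

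The level of the testis isoforms over their somatic counterparts was compared between genotypes as a log2 ratio of CPM in each library. The log2 ratio of Cyct over Cycs had a lowest, median and highest value of 2.17, 2.91 and 3.10 in WT, 2.26, 2.58 and 3.27 in KO and 2.38, 2.89 and 3.22 in KI. The log2 ratio of Cox6b2 over Cox6b1 was 3.98, 4.16 and 4.81 in WT, 3.70, 4.06 and 4.62 in KO and 4.05, 4.51 and 4.75 in KI. The genotypes overlapped for both pairs. The log2 ratio of Cox8c over Cox8a was 5.17, 5.43 and 5.59 in WT, 4.61, 4.88 and 5.88 in KO and 4.74, 5.19 and 5.43 in KI. The log2 ratio of Cox7b2 over Cox7b was 6.21, 7.11 and 7.71 in WT, 5.73, 6.40 and 7.77 in KO and 5.71, 6.11 and 6.61 in KI. The KI range lay lower than the WT range for Cox7b2 over Cox7b, with overlap. Its mean log2 ratio was 6.15 ± 0.36 in KI and 6.98 ± 0.55 in WT (SD, n = 6 each), a difference of -0.83 with p = 0.0195 by a two-sided exact permutation test and an adjusted p of 0.234 over the 12 comparisons of 4 ratios. The lowest unadjusted p of the other 11 was 0.0433, for Cox6b2 over Cox6b1 in KI against KO (difference 0.40, exact permutation test, adjusted p = 0.260). None of the 12 ratios thus passed the adjusted threshold of 0.1. Cyct over Cycs differed by -0.08 in KO and 0.10 in KI from WT (exact permutation adjusted p = 0.729 and 0.701).

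**Figure D2:**
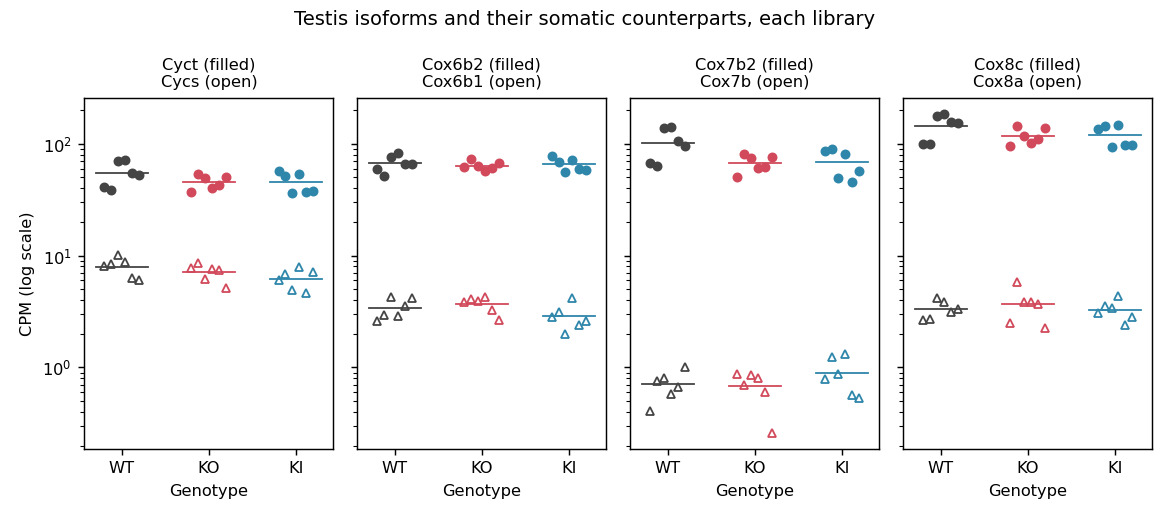
Level of each testis isoform (filled circles) and its somatic counterpart (open triangles) in every library, in CPM on a log scale; horizontal lines are means of 6 libraries. In every library of all genotypes the testis isoform lies above its counterpart, and only Cox7b2 shifts down past the test in KO and KI.

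Gene by gene, 1 of the 4 testis isoforms was lower in each mutant, where 13.5% of all genes tested were lower in KO and 15.4% in KI. Cox7b2, the testis form of complex IV subunit VIIb, had a lowest, median and highest level of 62.8, 101 and 140 CPM in WT, 50.9, 68.1 and 81.5 CPM in KO and 45.7, 69.3 and 89.5 CPM in KI. The WT libraries 1 and 2 lay within the range of the mutants, and the other 4 lay above it. Its log2 fold change was -0.59 (SE 0.21) in KO and -0.58 (SE 0.21) in KI against WT (edgeR quasi-likelihood test, adjusted p = 0.0418 and 0.0458). The call was lost when the closest libraries were summed (adjusted p = 0.163 in KO and 0.207 in KI) and without WT 3 or without WT 4, as it was in KI without KI 5. Cox8c (log2 -0.29 and -0.28, SE 0.17), Cyct (-0.26 and -0.26, SE 0.16) and Cox6b2 (-0.07 and -0.04, SE 0.12) did not pass the test. For Cox6b2 the 95% interval of the log2 difference ran from -0.31 to 0.16 in KO and from -0.27 to 0.20 in KI.

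Across the whole chain, the changes that passed the test were falls. In KO against WT, 16 of the 95 members tested were lower and 0 higher by any amount (edgeR quasi-likelihood test, Benjamini-Hochberg adjusted p under 0.1 over 21058 genes), where 13.5% of all genes tested were lower and 16.4% higher. In KI against WT, 22 members were lower and 0 higher, where 15.4% of all genes were lower and 16.1% higher. The share of members lower was thus 16.8% in KO, near the background, and 23.2% in KI, and members higher were below the background in both. The lack of rises was seen in these tests as in DESeq2, which also called 0 members higher, where 11.8% and 13.3% of all genes were. In either direction, 22 of the 95 members in KO and 27 in KI had an unadjusted edgeR p under 0.05. Of the 21058 genes tested, 7199 in KO and 7504 in KI had one, a larger share than of the members. With library totals alone in place of TMM factors, 6 members were higher in KO (Atp5a1, Cyc1, Ndufa10, Ndufa4, Ndufc2 and Sdha) and 2 in KI (Cyc1 and Sdha), where 24.8% and 26.7% of all genes were higher, and 13 and 15 members were lower, where 10.2% and 11.8% of all genes were. The median log2 fold change of members was -0.12 in KO and -0.16 in KI, beside 0.03 and 0.05 over all genes tested. By sign alone, 64 of the 95 members were below 0 in KO and 74 in KI, where 9984 and 9415 of the 21058 genes tested were. Members are not independent of one another, and no test was made of these counts. No member passed 1 log2 unit (glmTreat) in any comparison, against 1.73% of all genes in KO, 1.95% in KI and 0.00475% in KI against KO. Since WT libraries are the controls of both comparisons, their values are set side by side and no agreement between them is counted. In bulk RNA, fewer cells with a transcript and less of it per cell cannot be told apart.

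**Figure D3:**
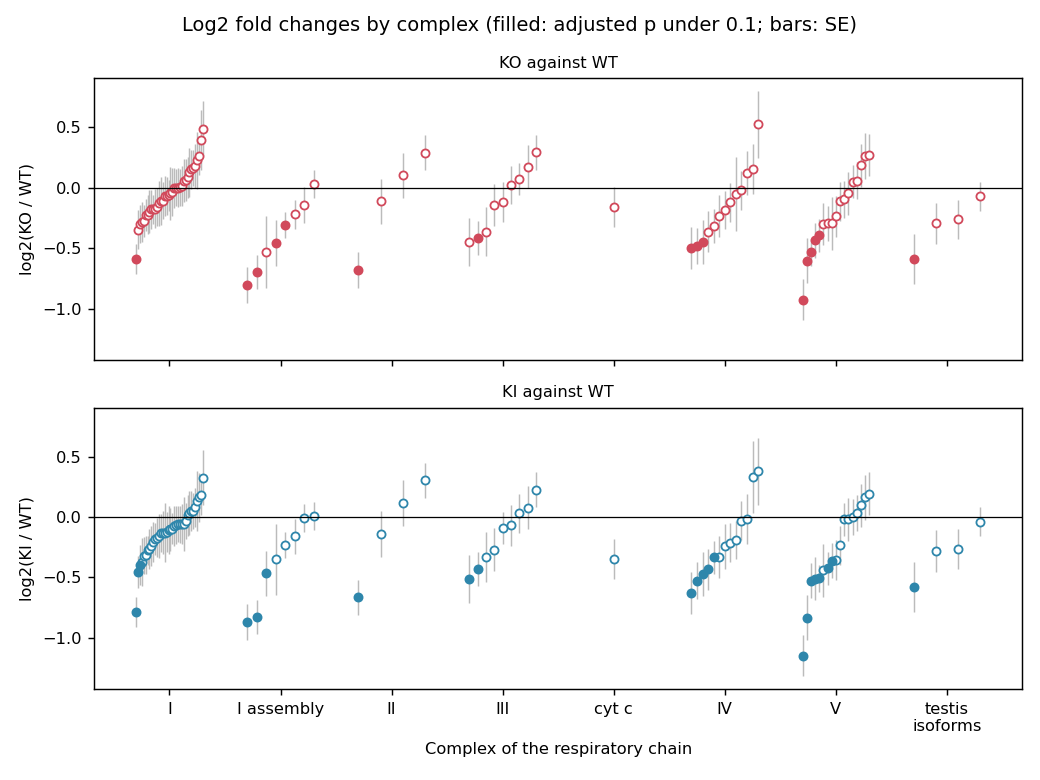
Log2 fold change of each tested gene in KO (upper panel) and KI (lower panel) against WT by complex, with SE as bars and genes with an adjusted p under 0.1 filled. All filled points lie below 0, 16 in KO and 22 in KI, with the lowest in complex V for Atp5mpl at -0.93 and -1.15.

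When the closest libraries of a genotype were summed to 1, which left 3 WT, 5 KO and 4 KI libraries, 8 members were lower in KO and 8 in KI, all of them among those of the fit on 18 libraries. That is 8.42% of the members in each mutant, where 7.74% of all genes in KO and 7.73% in KI were lower in the same fit, so that the share of members lower in KI, too, was near the background. No member was higher in either, where 8.11% and 7.02% of all genes were. They were Atp5g1, Atp5mpl, Atp5s, Ndufa13, Ndufaf1, Ndufaf2 and Sdhb in both, with Cox7a2 in KO and Cox4i1 in KI. Leaving out any 1 library gave 12 to 18 lower members in KO and 15 to 26 in KI, and 12 of the 16 and 14 of the 22 were called in every one of these 18 fits. Without the library labelled KI 4, 23 members were lower in KI, of which 19 were among the 22. Calls were lost with library totals alone for Cox6c, Ndufaf4 and Ndufaf7 in KO and for Atp5c1, Cox6c, Cox7a2l, Ndufa4l2, Ndufaf4, Ndufb2 and Uqcrfs1 in KI. Of these, the calls of Ndufaf4 in KO and of all but Uqcrfs1 in KI were also lost without a filter on low counts, and those in KI other than Ndufa4l2 with only the compared genotypes fitted.

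By count, complex V held the most falls, 5 of 17 tested in KO (29.4%) and 7 in KI (41.2%). Of all genes tested, 13.5% and 15.4% were lower. By share, the complex I assembly factors stood above complex V in KO (50%), and complex IV was near it in KI (38.5%). With the closest libraries summed, Atp5g1, Atp5mpl and Atp5s were the only genes of complex V still called. Atp5mpl (chr12:111961375-111966977, minus strand) had a lowest, median and highest level of 131, 160 and 178 CPM in WT, 47.1, 91.3 and 103 CPM in KO and 51.1, 77.9 and 84.2 CPM in KI. Every mutant library was below every WT library, and KO 3, KI 3 and KI 5 were the lowest. The log2 fold change was -0.93 (SE 0.17) in KO and -1.15 (SE 0.17) in KI (edgeR adjusted p = 0.000338 and 2.83e-05). Atp5g1, which encodes subunit c of the membrane ring (chr11:96068852-96075670, minus strand), went from a median of 11.9 CPM in WT (10.4 to 14.6) to 8.28 CPM in KO (5.27 to 10.1) and 7.78 CPM in KI (3.97 to 8.78). The ranges did not overlap with WT, and the log2 fold changes were -0.61 and -0.83 (SE 0.19 each, edgeR adjusted p = 0.0212 and 0.00209). Its paralogues Atp5g2 (log2 -0.29 and -0.44) and Atp5g3 (-0.05 and -0.02), which encode the same mature protein, did not pass the test. Atp5s, a coupling factor of the synthase, fell without overlap from a range of 27.4 to 36.3 CPM in WT to 18.9 to 25.0 CPM in KO and 19.2 to 26.4 CPM in KI. Atp5f1 and Atp5j of the peripheral stalk were lower in both mutants (log2 -0.44 and -0.39 in KO, -0.53 and -0.42 in KI). Atp5c1 (-0.36) and Atp5e (-0.51) of the central stalk were lower in KI. Atp5d of the central stalk and Atp5h and Atp5o of the peripheral stalk did not pass the test in KO or KI. The levels of Atp5d in KO and KI reached both below and above the WT range. The falls thus did not cover all stalk subunits tested. The call of Atp5c1 was lost in 7 of 18 fits that left out 1 library (without WT 2, WT 3, WT 5, KI 3, KI 4, KI 5 or KI 6). Atp5a1 and Atp5b, which form the catalytic head, had log2 values of 0.27 and 0.19 in KO and 0.19 and 0.10 in KI and did not pass the test.

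**Figure D4:**
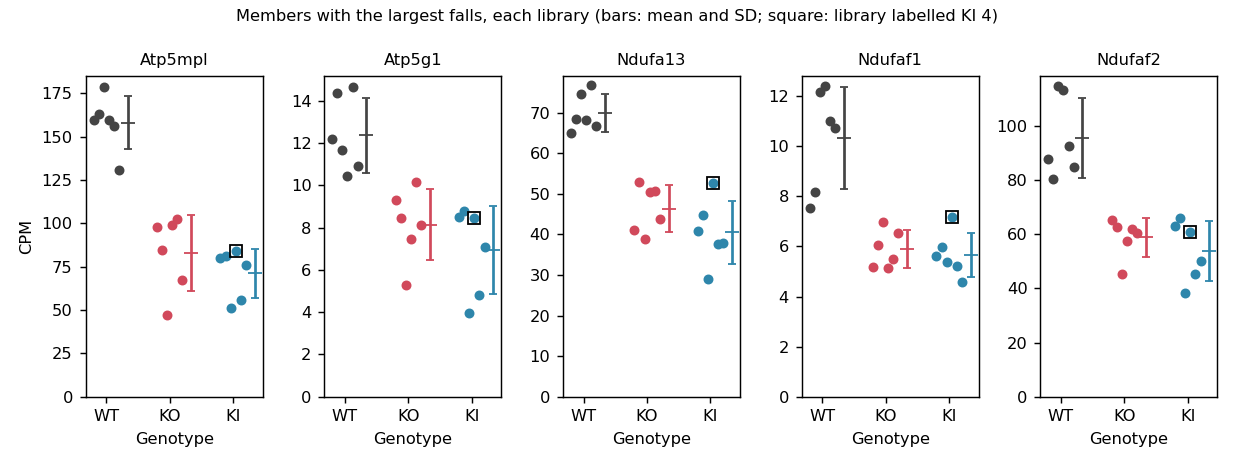
Level in CPM of the 5 members with the largest falls among those without overlap, in every library; points are libraries, bars to the right give the mean and SD of 6, and the square marks the library labelled KI 4. All KO and KI points lie below all WT points in each panel, as for Atp5mpl with 131 CPM in the lowest WT library against 103 and 84.2 CPM in the highest KO and KI library.

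In complex I, 1 of 36 subunits was lower in KO (2.78%) and 3 in KI (8.33%), below the 13.5% and 15.4% of all genes tested. Ndufa13 (chr8:69894180-69902558, minus strand), an accessory subunit, had a lowest, median and highest level of 65.1, 68.3 and 76.7 CPM in WT, 38.9, 47.2 and 53.0 CPM in KO and 29.1, 39.4 and 52.6 CPM in KI, with no overlap. Its log2 fold change was -0.59 (SE 0.12) in KO and -0.79 (SE 0.12) in KI (edgeR adjusted p = 0.00122 and 5.85e-05). Ndufb7 (log2 -0.45) and Ndufb2 (-0.40) were lower in KI, where their values in KO were -0.28 and -0.28 and did not pass. The call of Ndufb2 was lost in 8 of 18 fits that left out 1 library (without WT 3, WT 4, WT 5, WT 6, KO 5, KI 3, KI 5 or KI 6) and with DESeq2 or the replicate number as a block. The core subunits Ndufv1, Ndufv2, Ndufs1, Ndufs3, Ndufs7 and Ndufs8, among them carriers of flavin and iron-sulfur clusters, had log2 values from -0.20 to 0.09 in KO and from -0.10 to 0.01 in KI, and none passed the test. For Ndufv2 the 95% interval was -0.33 to 0.32 in KO and -0.38 to 0.26 in KI.

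The assembly factors of complex I, which help build it and are not part of it, held 4 falls among 8 in KO (50%) and 3 in KI (37.5%). Of all genes tested, 13.5% and 15.4% were lower. Ndufaf1, which acts on the membrane arm (chr2:119655446-119662827, minus strand), had a lowest, median and highest level of 7.54, 10.9 and 12.4 CPM in WT, 5.15, 5.78 and 6.98 CPM in KO and 4.57, 5.50 and 7.15 CPM in KI. All mutant libraries were below all WT libraries, of which WT 1 and WT 2 were the nearest, and the log2 fold change was -0.81 in KO and -0.87 in KI (SE 0.15 each, edgeR adjusted p = 0.000339 and 0.000142). Ndufaf2 (chr13:108002715-108158623, minus strand) went from 80.4, 90.2 and 115 CPM in WT to 45.2, 61.3 and 65.4 CPM in KO and 38.4, 55.5 and 66.0 CPM in KI. Its log2 fold change was -0.70 in KO and -0.83 in KI (SE 0.14 each, edgeR adjusted p = 0.000831 and 0.000138), again without overlap. Ndufaf4 was lower in both (log2 -0.46 and -0.47) and Ndufaf7 in KO (-0.31, with -0.23 in KI). The calls of Ndufaf4 were lost in 8 of 18 fits that left out 1 library in KO (without WT 1, WT 3, WT 4, WT 5, KO 2, KO 4, KO 5 or KO 6) and in 7 in KI (without WT 3, WT 4, WT 5, KI 2, KI 3, KI 5 or KI 6), and that of Ndufaf7 without WT 3 or WT 4. Ndufaf3, the most abundant of them, had a log2 value of 0.03 in KO and 0.01 in KI.

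In complex II, Sdhb, the iron-sulfur subunit, had a lowest, median and highest level of 42.7, 58.4 and 70.8 CPM in WT, 31.7, 35.1 and 43.1 CPM in KO and 27.7, 36.6 and 47.3 CPM in KI. The ranges overlapped at their edge, and the log2 fold change was -0.68 in KO and -0.67 in KI (SE 0.15 each, edgeR adjusted p = 0.0017 and 0.00186). Sdha, its partner in the soluble part of the complex, had a log2 value of 0.29 in KO and 0.30 in KI (SE 0.15 each, adjusted p = 0.163 and 0.139 by edgeR). It was called higher with library totals alone (0.41 and 0.44, edgeR adjusted p = 0.0264 and 0.0161). The membrane anchors Sdhc and Sdhd did not pass (-0.11 and 0.10 in KO, -0.14 and 0.12 in KI). Thus 2 transcripts of 1 enzyme had estimates of opposite sign.

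In complex III, Uqcrh, the hinge protein, was lower in KO and KI (log2 -0.41 and -0.43), and Uqcrfs1, the Rieske iron-sulfur protein, in KI (-0.51, with -0.45 in KO). The call of Uqcrfs1 was lost in 5 of 18 fits that left out 1 library (without WT 3, WT 4, KI 3, KI 5 or KI 6). Uqcrq, the most abundant, had values of 179, 193 and 223 CPM in WT, 111, 188 and 205 CPM in KO and 103, 157 and 223 CPM in KI, and its log2 values of -0.14 and -0.27 did not pass. In complex IV, 3 of 13 somatic genes were lower in KO (23.1%) and 5 in KI (38.5%), where 13.5% and 15.4% of all genes tested were. Cox4i1 went from 94.0, 144 and 157 CPM in WT to 74.6, 93.5 and 111 CPM in KO and 59.6, 85.7 and 109 CPM in KI, with log2 fold changes of -0.50 and -0.63 (SE 0.17 each, edgeR adjusted p = 0.0392 and 0.00975). The KO call of Cox4i1 was lost with the closest libraries summed (edgeR adjusted p = 0.175). In that fit Cox7a2 in KO and Cox4i1 in KI were the only genes of complex IV still called. Cox7a2 and Cox6c were lower in both mutants (log2 -0.48 and -0.45 in KO, -0.53 and -0.47 in KI), and Ndufa4l2 (-0.43) and Cox7a2l (-0.33), a factor that joins complexes III and IV, in KI. Of the 18 fits that left out 1 library, the call of Cox6c was lost in 7 in KO (without WT 3, WT 4, WT 5, KO 1, KO 3, KO 4 or KO 5) and in 5 in KI (without WT 3, WT 4, KI 3, KI 5 or KI 6), and in KO also with the replicate number as a block. The call of Ndufa4l2 was lost in 5 of them (without WT 1, WT 2, KI 2, KI 3 or KI 4). That of Cox7a2l was lost in 7 (without WT 3, WT 4, WT 5, KI 3, KI 4, KI 5 or KI 6) and with DESeq2. The somatic forms Cox6b1 (log2 0.12 and -0.24), Cox8a (0.15 and -0.02) and Cox7b (-0.05 and 0.33) and the somatic cytochrome c gene Cycs (-0.16 and -0.35) did not pass the test in KO or KI. Cycs was called lower in KI without the library labelled KI 4 and KO 2 (log2 -0.43, edgeR adjusted p = 0.0729), an alternative chosen after seeing the data. It was also called lower in KI in 3 of 18 fits that left out 1 library (without WT 5, WT 6 or KI 4).

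Every library of a mutant was below every WT library for 9 members in KO (9.47% of the 95) and 6 in KI (6.32%), where 6.44% and 7.91% of all genes tested were so. No member was above WT in every library, where 6.62% in KO and 5.97% of all genes in KI were. In KI against KO no member was called in either direction (edgeR), where 0.0760% of all genes were higher and 0.0237% lower. DESeq2 called 0 members too, and the log2 differences ran from -0.36 to 0.38. An unadjusted edgeR p under 0.05 was found for 0 members, where 931 of the 21058 genes tested had one.

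Summed over all members, the level spread more widely in KI than between genotypes. It was 4251 to 5770 CPM in WT, 3654 to 4933 CPM in KO and 3141 to 5499 CPM in KI, and 0.344% to 0.553% of the counts of a library. KI 3 and KI 5 were the lowest of the KI libraries (3141 and 3350 CPM) and KI 1 and KI 2 the highest (5386 and 5499 CPM), and both are pairs of close libraries. Mitochondrial rRNA took 15.3% and 15.5% of counts in KI 3 and KI 5 and 8.78% and 7.73% in KI 1 and KI 2. In KO, KO 3 was the lowest (3654 CPM) and had 21.3% of mitochondrial rRNA, while in WT, WT 1 and WT 2 were the lowest (4251 and 4351 CPM) with 9.79% and 8.96%. KI 4 and KO 2 had 17.5% and 17.4% of mitochondrial rRNA and were not among the lowest of their genotypes (4680 and 4682 CPM). The part of this share in the results was not tested. The sum of complex V was 1007 to 1147 CPM in WT, 684 to 1066 CPM in KO and 633 to 1172 CPM in KI, and that of complex II 148 to 240 CPM, 175 to 234 CPM and 155 to 254 CPM. Genotypes overlapped for the sum of each complex.

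**Figure D5:**
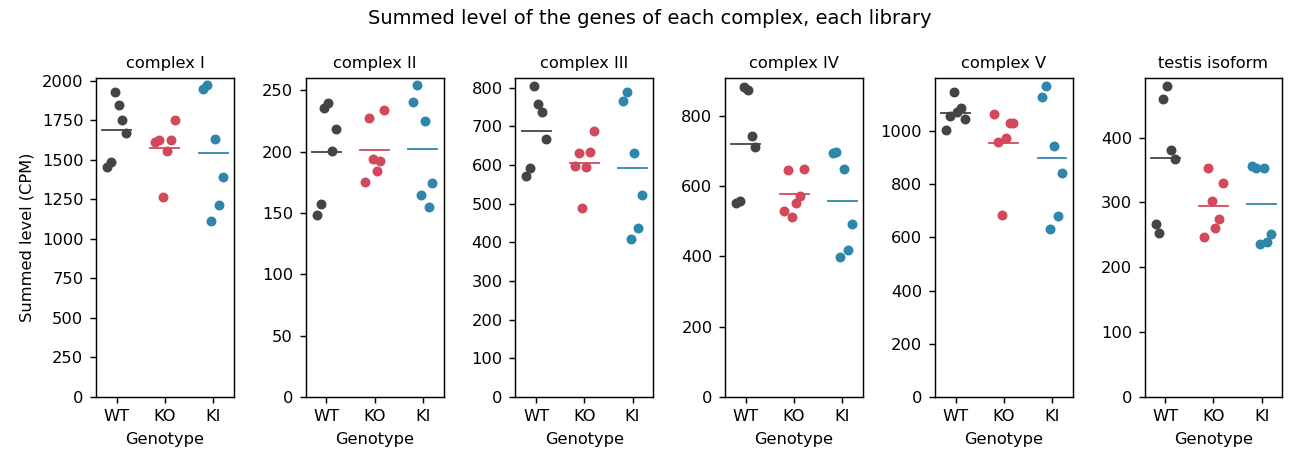
Summed level in CPM of the genes of each complex and of the testis isoforms in every library, with lines for the mean of 6. The KI libraries spread widely in complexes I, III and V, from 1112 to 1972 CPM in complex I, and overlap with WT and KO in every panel.

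The 13 subunits encoded by the mitochondrial genome, to which the nuclear subunits are joined in complexes I, III, IV and V, gave no call. Their log2 values were above 0 for 13 of 13 in KO (0.07 to 0.50) and in KI (0.05 to 0.40). Of the 21058 genes tested, 11074 in KO and 11643 in KI were above 0. The 13 share 1 genome and are not independent of one another, so their signs are not 13 separate observations. By edgeR 0 passed the test, with 1 unadjusted p under 0.05 in KO and 0 in KI, where 7199 and 7504 of all genes had one. Their summed level was 10182 to 13363.5 CPM in WT, 8371 to 22311 CPM in KO and 8473 to 19104 CPM in KI, a spread in the mutants that covers WT. For mt-Co2, mt-Co3, mt-Atp6, mt-Nd4l and mt-Nd3 between 98.0% and 100% of 50-base stretches are also in other transcripts, and their mean levels in WT were 0.577 to 19.9 CPM, beside 4850 CPM for mt-Co1 (51.1%), so that only uniquely placed reads of them are seen.

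Among 11 regulators of mitochondrial biogenesis, 4 were higher (36.4%) and 2 lower (18.2%) in each mutant, beside 16.4% and 13.5% of all genes in KO and 16.1% and 15.4% in KI. Tfam, named for a factor that packages and helps transcribe mitochondrial DNA, was counted per gene, so its different transcripts were not told apart. Which of its products changed was not tested. It had a lowest, median and highest level of 140, 167 and 183 CPM in WT, 37.3, 57.0 and 68.7 CPM in KO and 39.0, 51.7 and 62.2 CPM in KI. The groups were far apart, and the log2 fold change was -1.57 in KO and -1.72 in KI (SE 0.15 each, edgeR adjusted p = 5.42e-08 and 1.27e-08), the only one of the list past 1 log2 unit. Tfb1m, a methyltransferase of mitochondrial rRNA, was lower too (log2 -0.64 and -0.80). Ppargc1a, a coactivator of respiratory genes, was higher (0.70 and 0.67), as were Esrra (0.48 and 0.52) and Polrmt, the mitochondrial RNA polymerase (0.32 and 0.36), with Nrf1 in KO (0.35) and Polg in KI (0.29). Of 40 assembly factors outside the members, 39 were tested, of which 6 were higher and 5 lower in KO and 4 higher and 5 lower in KI. These shares of 15.4% higher and 12.8% lower in KO and 10.3% and 12.8% in KI lay at or below those over all genes tested (16.4% and 13.5% in KO, 16.1% and 15.4% in KI), so the counts show nothing particular to the list. The falls were Cox11, Cox20, Lyrm7, Nubpl and Sdhaf4 in both, with Lyrm7, which serves the Rieske protein, at -0.87 in KO and -1.0 in KI. The rises were Cox10, Ecsit, Sco1 and Sdhaf2 in both, with Ecsit, a complex I assembly factor, at 1.09 and 0.86, and Bcs1l and Cox15 in KO.

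Some markers of other cells moved with genotype. The shares over all genes tested were 16.4% higher and 13.5% lower in KO, and 16.1% and 15.4% in KI. All 5 Leydig cell markers were higher in KO and KI, with a median log2 fold change of 1.94 and 1.78 and a summed level of 9.68 to 19.7 CPM in WT, 29.6 to 51.0 CPM in KO and 13.2 to 65.7 CPM in KI, and none of them was at 0. Of 6 spermatocyte markers 2 were higher in KO and 2 in KI (33.3% each). Of 7 RS markers 2 were lower in KO (28.6%) and 3 in KI (42.9%). Spermatogonium markers were higher for 2 of 6 in KO (33.3%) and 1 in KI (16.7%, near the share of all genes). Macrophage markers were higher for 2 of 4 in each mutant (50%). The macrophage markers had a summed level of 3.47 to 7.72 CPM in WT, 5.51 to 11.3 CPM in KO and 7.25 to 12.1 CPM in KI. Of 6 Sertoli cell markers 1 was lower in each mutant (16.7%, near the share of all genes). Of 3 endothelial markers none passed the edgeR test in either, with 0 at an unadjusted p under 0.05. Of 3 peritubular markers 1 was lower in each mutant and 1 was higher in KO. The 1 red blood cell marker tested was higher in KI (log2 0.75, edgeR adjusted p = 0.0813) and not in KO (log2 0.02). The part of other cells in the falls of the members was not tested.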

How the data were processed

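RNA of RS was measured in 18 libraries. Per the labels and the study's methods, the authors trimmed reads with cutadapt 3.4, aligned them with STAR 2.7.8a to mm10 (GRCm38) and counted fragments by strand on GENCODE M18 genes with featureCounts of Subread 2.0.1, marked duplicates being kept. The authors deposited raw counts. Symbols and positions came from GENCODE M21, and the exon length of a gene is that in the deposited table.

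Counts were used unchanged. Genes were filtered with filterByExpr (21058 left) and scaled by TMM in edgeR 4.0.16 (R 4.3.3). Genotype was modelled over all 18 libraries by quasi-likelihood, with glmQLFTest and glmTreat, Benjamini-Hochberg adjustment and a threshold of 0.1. Genotypes were taken from the labels. Isoform ratios (prior count 2) were compared by two-sided exact permutation tests, in which 6 against 6 cannot give a p below 0.00216. Intervals are 95% and are built from the SE. Scripts were tested on simulated data. At 3 counts per library the floor was 0.112 to 0.160 CPM of the total, for counting error only.

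Members, gene lists and tests were chosen with earlier results of these data known. Named were Ddx25, the isoform pairs, the 5 largest rises and falls without overlap in each comparison with WT, members past 1 log2 unit, members called in KI against KO, and the highest per kb in each complex. Other members were named after their values were seen. Alternatives were DESeq2 1.42.0, other scalings and filters, fewer libraries, summed libraries, a replicate block and other pseudocounts. Levels of miRNAs were not analysed here.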

Additional observations from a re-analysis of the deposited data

Results flagged for a closer look

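One value of the 72 groups of 6 libraries examined stood apart from its group. Ddx25, the targeted gene, was at 56.9 CPM in the library labelled KI 4, where the other KI libraries lay between 0.0456 and 0.519 CPM, so that 0.992 of the range of the group is the gap to the nearest library. None of the 18 named members, the 4 isoform ratios or the summed level of all members was flagged in any genotype. Chance alone flags about 1 in 20 such groups. Without that library 23 members were lower in KI against WT and 0 were higher.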

How the results depend on the processing

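The count of members past 1 log2 unit stayed at 0 in all 3 comparisons under all alternatives run, as did the count of members called in KI against KO. The counts of 16 members lower in KO and 22 in KI against WT stayed within 1.5 times of that under all alternatives other than summing. With the closest libraries summed they were 8 and 8, and 8 and 9 with the library labelled KI 4 also left out, an alternative chosen after seeing the data, with fewer libraries by construction. Leaving out 1 library gave 12 to 18 and 15 to 26. The count of members higher, 0 in both, was 6 in KO and 2 in KI with library totals alone, which moved the median log2 fold change of all genes from 0.03 to 0.15 in KO and from 0.05 to 0.20 in KI, and that of members to 0.00 and -0.02. It was 1 in KO with only the compared genotypes fitted (Cyc1), and 0 to 1 when a library was left out in either comparison (Ndufc2 in KO without WT 6 or without KO 1, Sdha in KI without WT 3, WT 6, KI 3 or KI 5). The cause was not tested.

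The isoform ratios kept their side of the threshold except without KO 6, when 3 passed it with adjusted p of 0.0519 (Cox6b2 over Cox6b1 in KI against KO), 0.0779 (Cox7b2 over Cox7b in KI against WT) and 0.0519 (Cox8c over Cox8a in KO against WT). Leaving out 1 library gave a difference of 0.32 to 0.51, -0.98 to -0.68 and -0.54 to -0.28 for these. Replicate numbers were not taken to pair the libraries. The correlation of same-numbered libraries was over 0.1 in 7 of 18 pairs (-0.44 to 0.48). For 5 of 18 libraries the closest library of another genotype had the same number. With the replicate block 18 members were lower in KO and 23 in KI, and 0 were higher. Copies of a gene elsewhere in the genome limit what unique counts show, and genes under the floor cannot be compared.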
